A study of Mus musculus with 6 samples.

Results

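Platelet and megakaryocyte genes were followed in RNA from purified CD4 T cells, comparing WT with AMPK KO samples. The 10 genes, Pf4, Ppbp, Itga2b, Itgb3, Gp1bb, Gp9, Treml1, Tubb1, Thbs1 and Sparc, were chosen from genes known to mark the platelet lineage. They were proposed after genes of the platelet degranulation pathway had been seen to be higher in AMPK KO in this same comparison. All 10 were among the 23282 genes listed in every sample. A total of 7 reached the mean log2 value of 1 over the 6 samples that was required for testing, and each of these 7 also had a mean above 1 in both groups. Gp1bb, Gp9 and Tubb1 did not reach it. As the comparison of AMPK KO with WT was part of how the genes were proposed, their differences are given as a description, without p values.

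CD4 T cells came from spleen and lymph nodes of C57BL/6 mice, with 3 WT and 3 AMPK KO samples. WT mice were Prkaa1 fl/fl without Cre, and in AMPK KO mice CD4Cre deleted the floxed Prkaa1 gene, which encodes AMPKα1, so that both groups carried the floxed alleles and only one carried Cre. CD4Cre is active in developing and mature T cells and is not a platelet or megakaryocyte driver. The study's methods give female mice of 6 to 8 weeks. Cells were isolated with magnetic beads or by sorting, and the purity stated after magnetic isolation is more than 90%, so other blood and tissue cells could be present. They were rested for 1 h and stimulated with anti-CD3 and anti-CD28 at 2 µg/mL, for 24 h according to the sample labels and for 6 h according to the methods. QuantSeq libraries were built on 500 ng of total RNA, a method that reads the 3′ end of transcripts. The samples are described as biologically independent, although the labels do not say whether each came from its own animal.

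Platelets are small anucleate cells that megakaryocytes shed into the blood. They carry megakaryocyte RNA and store proteins in alpha granules, among them the chemokines platelet factor 4 (Pf4) and pro-platelet basic protein (Ppbp) and the matrix proteins thrombospondin-1 (Thbs1) and SPARC. Their surface bears the von Willebrand factor receptor GPIb-IX-V, to which Gp1bb and Gp9 contribute, and the fibrinogen receptor αIIbβ3, formed by Itga2b and Itgb3. Degranulation is the release of granule contents upon activation. The spleen holds platelets and, in mice, megakaryocytes, and platelets adhere to leukocytes. Not all 10 genes are equally restricted: Itgb3 also pairs with αv in other cells, and Thbs1 and Sparc are also made by macrophages, stroma or endothelium.

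The starts of Pf4 and Ppbp lie in one chemokine cluster, and their promoters are shown because Pf4 is the member that was higher and Ppbp is the granule gene beside it. Gp9 and Itga2b are shown as genes of the platelet surface receptors, and Gp9 is the one whose window holds GATAA. Each line gives 250 bases upstream of the RefSeq start (GRCm38.p6), read along the strand of the gene. Capitals mark GATAA, a core word of GATA factor sites, and GGAAG, a core word of ETS factor sites, on either strand (TTATC and CTTCC on the other). The windows are chr5:90772185-90772434 and chr5:90768268-90768517 on the plus strand, chr6:87777820-87778069 on the plus strand and chr11:102469884-102470133 on the minus strand. In the GENCODE positions used below, Itga2b starts at 102470122, so most of its window lies inside the gene in that annotation. The window of Sparc, counted below, also lies inside its GENCODE gene.
Pf4: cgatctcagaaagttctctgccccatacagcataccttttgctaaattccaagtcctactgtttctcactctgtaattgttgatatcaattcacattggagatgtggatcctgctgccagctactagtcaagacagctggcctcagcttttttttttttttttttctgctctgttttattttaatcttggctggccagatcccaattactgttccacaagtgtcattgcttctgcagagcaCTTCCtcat
Ppbp: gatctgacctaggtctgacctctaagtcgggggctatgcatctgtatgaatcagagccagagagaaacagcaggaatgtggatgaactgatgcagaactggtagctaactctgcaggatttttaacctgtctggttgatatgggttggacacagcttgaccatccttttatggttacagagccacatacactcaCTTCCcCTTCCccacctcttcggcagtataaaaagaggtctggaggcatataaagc
Gp9: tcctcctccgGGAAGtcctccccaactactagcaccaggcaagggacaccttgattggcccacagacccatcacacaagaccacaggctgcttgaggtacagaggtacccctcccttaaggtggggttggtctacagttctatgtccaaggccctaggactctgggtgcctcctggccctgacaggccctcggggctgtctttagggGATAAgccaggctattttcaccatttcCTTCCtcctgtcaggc
Itga2b: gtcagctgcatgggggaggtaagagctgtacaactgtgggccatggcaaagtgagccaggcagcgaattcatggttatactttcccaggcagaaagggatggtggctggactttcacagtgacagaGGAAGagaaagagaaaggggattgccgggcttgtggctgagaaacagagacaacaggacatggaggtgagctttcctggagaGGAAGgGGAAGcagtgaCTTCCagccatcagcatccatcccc
Promoters of 8 members were found in the RefSeq table, those of Itgb3 and Thbs1 not being among them. GATAA occurred in 1 of the 8 (12.5%), in Gp9, where it begins 43 bases before the start. It occurred in 23.0% of 27025 promoters of the same length and in 14.7% of the promoters of tested genes. GGAAG occurred in 7 of the 8 (87.5%), all but Sparc, and it occurred in 63.6% of all promoters and in 69.2% of those of tested genes. These letters are a description of the windows and do not mark bound sites.

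The libraries held 9575096 to 11185360 reads on genes. Ribosomal Rn45s took 22.4% ± 2.21 of the WT reads and 9.89% ± 1.24 of the AMPK KO reads (SD, n = 3). Prkaa1, the targeted gene, had log2 values of 4.64, 5.24 and 4.86 in WT and 4.08, 4.72 and 4.67 in AMPK KO, so the groups overlapped, the opposite-strand gene Gm15938 overlaps it, and 3′ reads outside a deleted exon would not check the deletion. The groups also differed in sex-linked RNA. Xist, which is made from the inactive X chromosome, was counted 8 to 32 times per WT library and 1998 to 2876 times per AMPK KO library. Ddx3y, on the Y chromosome, was counted 3158 to 3462 times per WT library and 1296 to 1840 times per AMPK KO library. Y-linked RNA in all 6 libraries goes against the stated female sex, and the genotype cannot be told apart from this difference in any comparison below. The part of Rn45s and of the sex-linked difference in the platelet values was not tested.

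Values below are log2 of normalized CPM (reads scaled to a common library size) plus 1, and differences are AMPK KO minus WT on this log2 scale with the standard error of the limma fit across all genes. In bulk RNA, fewer cells of a type and less RNA per cell cannot be told apart.

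Among the 10 genes, only Pf4 and Itgb3 separated the groups, and they did so in opposite directions. Pf4 was higher in AMPK KO, Itgb3 was lower, and the other 5 tested genes overlapped between the groups. Of the 7 tested, 1 was called higher and 1 lower at an adjusted p under 0.05 in limma with Benjamini-Hochberg adjustment, against 2.54% called higher, 3.10% called lower and 5.65% called in either direction among all 11279 tested genes. Groups without overlap were likewise seen for 1 gene higher and 1 lower, against 11.6% and 14.0% of all tested genes. As the comparison served to propose the genes, nothing is read from these counts. The means of 5 of the 7 were higher in AMPK KO, and the median difference was 0.85, beside 0.02 over all tested genes.

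**Figure D1:**
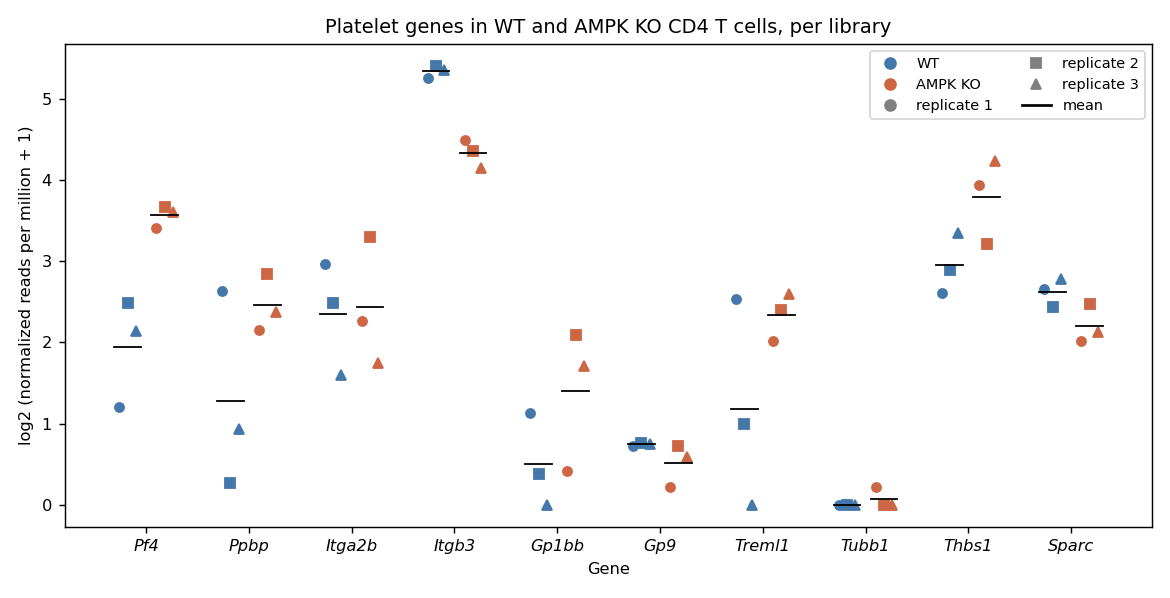
Log2 of normalized CPM plus 1 (vertical axis) for each of the 10 platelet genes (horizontal axis) in 3 WT (blue) and 3 AMPK KO (orange) libraries. Symbols mark the replicate numbers and black lines the group means. Pf4 lies higher and Itgb3 lower in all 3 AMPK KO libraries, Tubb1 is at or near 0, and the others overlap.

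Pf4 encodes platelet factor 4, a CXC chemokine of alpha granules, and lies at chr5:90772435-90773383 on the plus strand (GRCm38). Its log2 values were 1.20, 2.49 and 2.13 in WT and 3.41, 3.67 and 3.61 in AMPK KO, from 12, 46 and 30 reads and from 114, 126 and 133 reads. Every AMPK KO library lay above every WT library. The means were 1.94 ± 0.66 and 3.56 ± 0.14 (SD, n = 3), a difference of 1.62 (standard error 0.39), and the mean normalized level was 3.50 times as high in AMPK KO. The WT values were more spread than those of AMPK KO. Pf4 was no longer called when WT 1, WT 3, AMPK KO 1 or AMPK KO 3 was left out, with differences of 1.25, 1.72, 1.70 and 1.60, and it was called without WT 2 and without AMPK KO 2.

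Ppbp encodes the precursor of a neutrophil-attracting granule chemokine, and ends 2372 bases before the start of Pf4, at chr5:90768518-90770063 on the same strand. Its log2 values were 2.63, 0.26 and 0.93 in WT and 2.16, 2.84 and 2.38 in AMPK KO. WT 1, with 48 reads, lay above AMPK KO 1 and 3, whereas WT 2 and 3 had 2 and 8 reads. The difference was 1.18 (standard error 0.54), and the groups overlapped. Over the alternatives it ran from 0.68 without WT 2 to 2.10 in limma voom. Within WT the neighbouring genes had opposite orders, since WT 1 held the lowest Pf4 value and the highest Ppbp value.

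The other chemokine genes around Pf4 were read out as well. Cxcl3 had no read in any library, and Cxcl5 and Cxcl15 had at most 2 and 1 reads. Cxcl1, a neutrophil chemokine, had no read in the WT libraries and 29, 4 and 32 reads in AMPK KO, and was not tested because of its low mean. Cxcl2, a neutrophil chemokine of activated myeloid cells 130488 bases from Pf4, rose by 1.65 (standard error 0.32, limma adjusted p = 0.0079). Its values were 3.07, 3.51 and 3.61 in WT and 5.32, 4.33 and 5.49 in AMPK KO, so that it was lowest among AMPK KO libraries in AMPK KO 2, where Pf4 was highest. Its call was lost without WT 1 or AMPK KO 1, where its difference stayed within the range of 1.43 to 2.01 seen with any library left out. Cxcr3, the chemokine receptor of activated T cells, had a difference of 0.74 (adjusted p = 0.207 in limma) with overlapping groups.

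Itga2b and Itgb3 encode the subunits of the platelet fibrinogen receptor, and they did not move together. Itga2b (chr11:102453297-102470122, minus strand) encodes αIIb, the subunit that is largely restricted to the megakaryocyte lineage. Its log2 values were 2.97, 2.49 and 1.60 in WT and 2.26, 3.30 and 1.75 in AMPK KO, from 18 to 95 reads. Both groups covered nearly the same range, with a difference of 0.08 (standard error 0.47).

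Itgb3 (chr11:104608000-104670476, plus strand) encodes β3, which pairs with αIIb on platelets and with αv elsewhere. Its log2 values were 5.26, 5.40 and 5.36 in WT and 4.49, 4.36 and 4.14 in AMPK KO, from 198 to 413 reads, the most of the 10 genes in every library but AMPK KO 3, where Thbs1 had 211. Every AMPK KO library lay below every WT library. The means were 5.34 ± 0.08 and 4.33 ± 0.17 (SD, n = 3), a difference of -1.01 (standard error 0.21). Without WT 1 or WT 3 the gene was no longer called, and it was called when any of the other 4 libraries was left out. Over all alternatives its difference ranged from -1.09 to -0.92. The libraries count 3′ ends, about 1 read per sequenced transcript end, so reads of these genes can be set side by side without a length correction. There were 5.44, 8.98 and 19.7 Itgb3 reads per Itga2b read in WT and 5.64, 2.20 and 7.07 in AMPK KO, so the ratio of the subunits varied among libraries of one group and overlapped between the groups.

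The partners of these integrins were listed alongside. Itgav (αv), the other partner of β3, had a difference of 0.75 (limma adjusted p = 0.0998), in the direction opposite to Itgb3 and with no overlap between the groups. Itgb1, the β1 subunit, had a difference of 0.53 (limma adjusted p = 0.092). Tln1 and Fermt3, which activate integrins from the cytoplasm, had differences of -0.16 and 0.66 with adjusted p of 0.553 and 0.302 in limma. None of these 4 passed the adjusted threshold. Of the 10 tested partner genes, 1 rose (Cxcl2) and 1 fell (Treml2).

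Gp1bb and Gp9 encode the β subunit of GPIb and the GPIX chain, which are needed for surface assembly of the von Willebrand factor receptor. Gp1bb (chr16:18620317-18622403, minus strand) had 11, 3 and 0 reads in WT and 4, 35 and 27 in AMPK KO, and Gp9 (chr6:87778072-87779768, plus strand) had 6, 7 and 6 reads in WT and 2, 7 and 6 in AMPK KO. Both stayed under the test filter, with differences of mean log2 values of 0.90 and -0.23. A count of 3 reads corresponded to a log2 value of 0.32 to 0.42. Gp9 lay near this floor in every library, so that a small difference in it was not detectable at this depth.

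**Figure D2:**
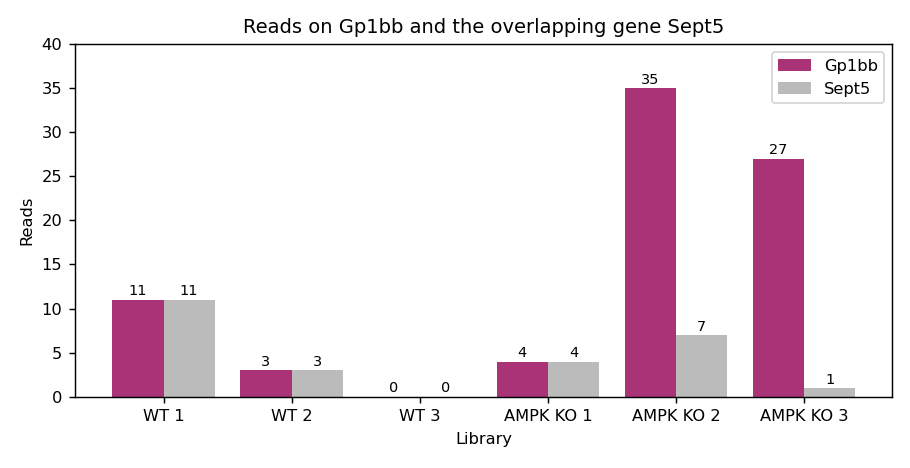
Reads (vertical axis, from 0) counted on Gp1bb and on the overlapping gene Sept5 in each of the 6 libraries (horizontal axis). The numbers are the same in WT 1, 2 and 3 and in AMPK KO 1, and Gp1bb exceeds Sept5 in AMPK KO 2 and 3.

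Gp1bb shares most of its length with Sept5, a septin gene of the same strand, with 1902 of its 2087 bases inside Sept5 and 185 outside. Sept5 had 11, 3, 0, 4, 7 and 1 reads in the same library order, that is, exactly the Gp1bb number in WT 1 to 3 and in AMPK KO 1. Gp1bb exceeded it by 28 reads in AMPK KO 2 and by 26 in AMPK KO 3. The reads that Gp1bb does not share by number with Sept5 were therefore found in these AMPK KO libraries and not in the other 4, and the WT values of Gp1bb cannot be assigned to either gene. Genes of the remaining receptor subunits, kept in the list of other platelet-restricted genes, were also low. Gp1ba had 19, 1 and 2 reads in WT and 5, 22 and 5 in AMPK KO, and Gp5 had 7, 0 and 8 in WT and 0, 5 and 0 in AMPK KO.

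Treml1 encodes TLT-1, a receptor held in alpha granules and brought to the surface when platelets are activated (chr17:48359916-48367176, plus strand). Its log2 values were 2.53, 1.00 and 0 in WT and 2.01, 2.40 and 2.60 in AMPK KO, from 44, 10 and 0 reads and from 36, 46 and 60 reads. WT 1 lay within the AMPK KO range, and WT 2 and 3 lay below it. The difference was 1.16 (standard error 0.55), with overlapping groups. Over the alternatives it ran from 0.57 without WT 3 to 2.58 in limma voom. Treml2, a relative of the same receptor cluster that is expressed on lymphocytes and myeloid cells, fell by 1.08 (standard error 0.21, limma adjusted p = 0.00804), a call lost without WT 1 or WT 3, and Trem1 had a difference of 0.81 (limma adjusted p = 0.290).

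Tubb1 encodes the β1-tubulin of the platelet marginal band and is restricted to late megakaryocytes and platelets (chr2:174450695-174457882, plus strand). It had no read in any WT library or in AMPK KO 2 and 3, and 2 reads in AMPK KO 1. All 6 libraries were thus at or under the floor of 3 reads, and no fold is given.

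Thbs1 and Sparc encode secreted matrix proteins that are also found in alpha granules. Thbs1 (chr2:118111876-118127133, plus strand) had log2 values of 2.61, 2.89 and 3.34 in WT and 3.94, 3.22 and 4.23 in AMPK KO, from 47 to 211 reads. AMPK KO 2 lay below WT 3, and the remaining AMPK KO libraries lay above all WT libraries. The difference of Thbs1 was 0.85 (standard error 0.35), and it was not called. Of 15 alternatives only 1 called Thbs1, that without AMPK KO 2, where the difference was 1.14. Its receptors Cd36 and Cd47 had differences of 1.02 and 0.17 with limma adjusted p of 0.0855 and 0.562. Sparc (chr11:55394500-55423183, minus strand) had log2 values of 2.66, 2.43 and 2.78 in WT and 2.01, 2.48 and 2.12 in AMPK KO, from 36 to 52 reads. The groups overlapped through WT 2 and AMPK KO 2, and the difference was -0.42 (standard error 0.36). Thbs1 overlaps a noncoding gene of the opposite strand over 597 bases, and whether the counting used strand is not given in the sources used here.

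Summed over the 10 genes, the normalized level was 64.4 ± 2.87 CPM in WT and 63.3 ± 3.92 in AMPK KO (SD, n = 3), a ratio of 0.983. The libraries held 67.6, 63.5 and 62.1 in WT and 59.4, 67.2 and 63.3 in AMPK KO, so the sums overlapped. The share of Itgb3 among the reads of the list was 55.1%, 65.0% and 64.5% in WT and 36.1%, 28.9% and 26.3% in AMPK KO, and that of Pf4 was 1.93%, 7.24% and 5.46% in WT and 16.2%, 17.5% and 17.7% in AMPK KO. Both shares separated the groups, whereas that of Thbs1 overlapped, at 7.54% to 14.8% in WT and 12.3% to 28.0% in AMPK KO. As shares add up to the whole, a lower Itgb3 share raises the others. Without Itgb3 the ratio of the sums was 1.77, from 24.9 ± 4.77 to 44.1 ± 5.37. Without Itgb3, Thbs1 and Sparc, named above for sources outside platelets, it was 2.11, from 12.8 ± 6.59 to 27.0 ± 7.28. In this subset WT 1 lay just below AMPK KO 1 at 20.6, and Pf4 had a mean of 3.10 in WT and 10.8 in AMPK KO. Whether the RNA of this subset came from platelets alone was not tested. These subsets were chosen after the values were seen.

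The libraries also differed within groups. Leaving out Tubb1, AMPK KO 2 held the highest AMPK KO value for 6 of the 9 genes and AMPK KO 1 the lowest for 6. In WT, WT 1 held the highest value for 4 genes and the lowest for 4 others, so no WT library was high throughout. WT 1 was highest for Ppbp, Itga2b, Gp1bb and Treml1 and lowest for Pf4, Itgb3, Gp9 and Thbs1.

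The 5 genes whose values most resembled the log2 of the summed level over the 6 libraries were Ccdc107 (Pearson r 0.996), Psmd9 (0.990), Coro1c (0.974), Parl (0.969) and Sit1 (0.962), among 7955 tested genes with a mean log2 value of at least 3. In all, 7 of these genes had an r over 0.95. None of the 5 named is a platelet marker, and the points share their libraries and depth. The summed level ran only from 59.4 to 67.6 CPM. Among 7955 genes and over 6 points such r can arise by chance, so nothing is read from these names.

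Other platelet-restricted genes, 27 that were listed from general knowledge, were mostly too low to test. Only 6 were tested, and limma called 0 of them. At an unadjusted p under 0.05 there were 2, limma voom on the recovered reads called 0, and 1 was called when a division of the libraries was added to the model. That division was drawn from the libraries' own deviations, so fitting it lowers the residual spread by construction, and calls gained with it are no support. The largest difference was that of Clec1b, the podoplanin receptor CLEC-2, with log2 values of 1.06, 1.26 and 2.06 in WT and 2.62, 2.91 and 2.56 in AMPK KO, a difference of 1.23 (standard error 0.41, limma adjusted p = 0.0916). Every AMPK KO library lay above every WT library for Clec1b, as also for Nrgn, neurogranin, with a difference of 0.66 (standard error 0.29, limma adjusted p = 0.205).

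Ptgs1, the cyclooxygenase of platelets, had a difference of 0.38, F5, coagulation factor V, of 0.40, Gng11, a G protein γ subunit, of 0.11 and Sdpr, a caveolar coat protein, of -0.64. All 4 overlapped between the groups, with limma adjusted p from 0.427 to 0.933. Of the 21 genes that were too low to test, 16 had a higher and 4 a lower mean in AMPK KO, and their summed level was 9.30 ± 1.98 in WT and 16.8 ± 5.07 in AMPK KO (SD, n = 3), a ratio of 1.80. Among them 4 were higher without overlap and 0 lower, named here after their values were seen. Among all tested genes 11.6% were higher and 14.0% lower without overlap. The share over all untested genes is not given here, so nothing is read from these counts. F2rl2, a thrombin receptor, had 8 reads in the 3 WT libraries together and 61 in AMPK KO, Slc35d3, a transporter of platelet dense granules, had 5 and 52, Nfe2, a transcription factor of megakaryocyte maturation, had 11 and 51, and Rab27b, a granule GTPase, had 7 and 29. Other markers were at 0 or overlapped. Gp6, the platelet collagen receptor, had no read in any library, which allows up to 3 reads in each. Vwf, von Willebrand factor, had 12 reads in the 3 WT libraries together and 18 in AMPK KO. The summed level of the 27 genes was 46.5 ± 9.38 in WT and 67.2 ± 10.1 in AMPK KO (SD, n = 3), a ratio of 1.44, and WT 1 at 57.1 lay above AMPK KO 3 at 55.6.

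**Figure D3:**
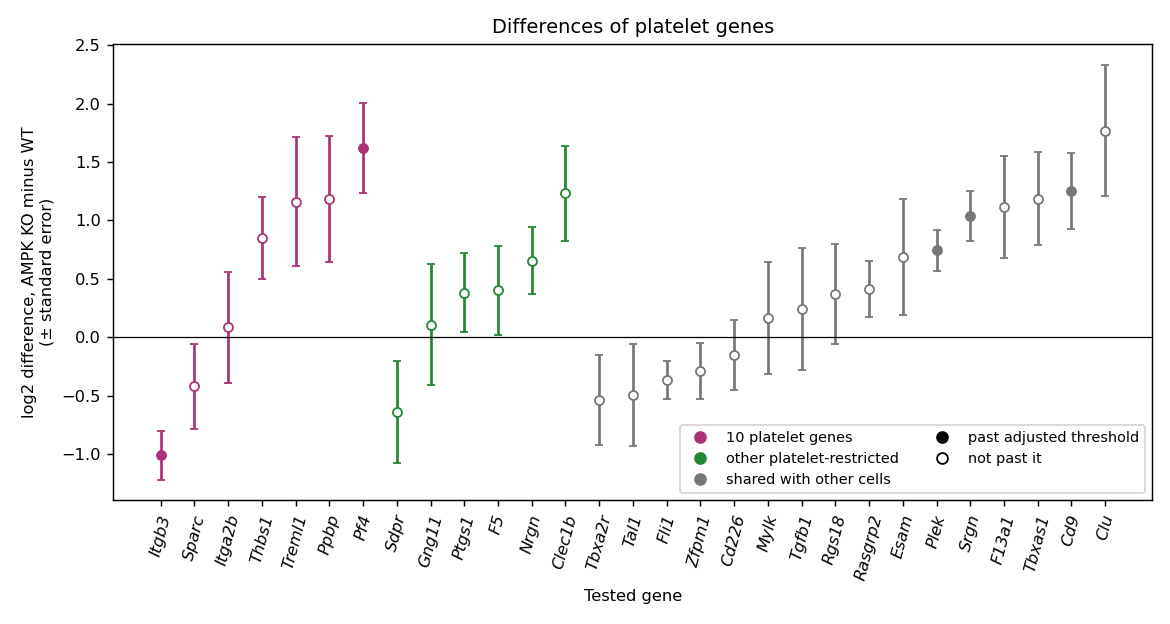
Log2 difference, AMPK KO minus WT, with its standard error (vertical axis), of each tested gene (horizontal axis) among the 10 platelet genes, the other platelet-restricted genes and platelet genes shared with other cells. Filled points passed the adjusted threshold: Pf4 and Itgb3 of the 10, none of the restricted genes, and Plek, Srgn and Cd9 of the shared genes.

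Platelet genes that leukocytes also express formed a separate list of 19, of which 16 were tested. In limma, 3 rose and 0 fell at an adjusted p under 0.05. Cd9, a tetraspanin, rose by 1.25 (standard error 0.33, adjusted p = 0.0363), Srgn, the serglycin core protein of secretory granules, by 1.04 (standard error 0.21, adjusted p = 0.0125), and Plek, pleckstrin, by 0.74 (standard error 0.18, adjusted p = 0.0245). Srgn had 5336 to 23743 reads and Plek 944 to 2338 reads per library, more than any of the 10 platelet genes, whereas Cd9 had 41 to 277. Of the most abundant genes in this list, Rasgrp2, Fli1 and Zfpm1 had differences of 0.41, -0.37 and -0.29 and did not pass (limma adjusted p 0.347, 0.213 and 0.518). With one library left out, 0 of the list were called without WT 1, WT 3 or AMPK KO 1, and 2 to 4 rose without any other library.

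The platelet degranulation pathway of Reactome was compared with the platelet genes in the same fit. Of its 87 genes, 86 were listed and 49 tested. In limma 10 rose and 1 fell, and the means of 39 of the 49 were higher in AMPK KO, with a median difference of 0.47. The pathway was chosen because it had been seen to be higher in these samples, so its counts are not independent evidence of direction. The gene that fell was Itgb3. Without WT 1 or AMPK KO 1, 0 genes of the pathway were called higher, and without WT 3 there were 3.

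The genes that rose were Pf4 and 9 others. Cd63, a tetraspanin of lysosomes and granules, rose by 1.36, Ttn, titin, by 1.38, Cd9 by 1.25, Trf, transferrin, by 1.16, Igf1, insulin-like growth factor 1, by 1.11 and Srgn by 1.04, with limma adjusted p from 0.0079 to 0.0363. Plek rose by 0.74 and Psap, the precursor of lysosomal saposins, by 0.53, with limma adjusted p of 0.0245 and 0.0375. None of these 9 is among the 10 platelet genes or the other 27. Among the most abundant genes of the pathway, Tmsb4x, thymosin β4, had a difference of 1.69 with overlapping groups (limma adjusted p = 0.128), Hspa5, an ER chaperone, of 0.35 (limma adjusted p = 0.199) and Sod1 of 0.39 (limma adjusted p = 0.170).

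**Figure D4:**
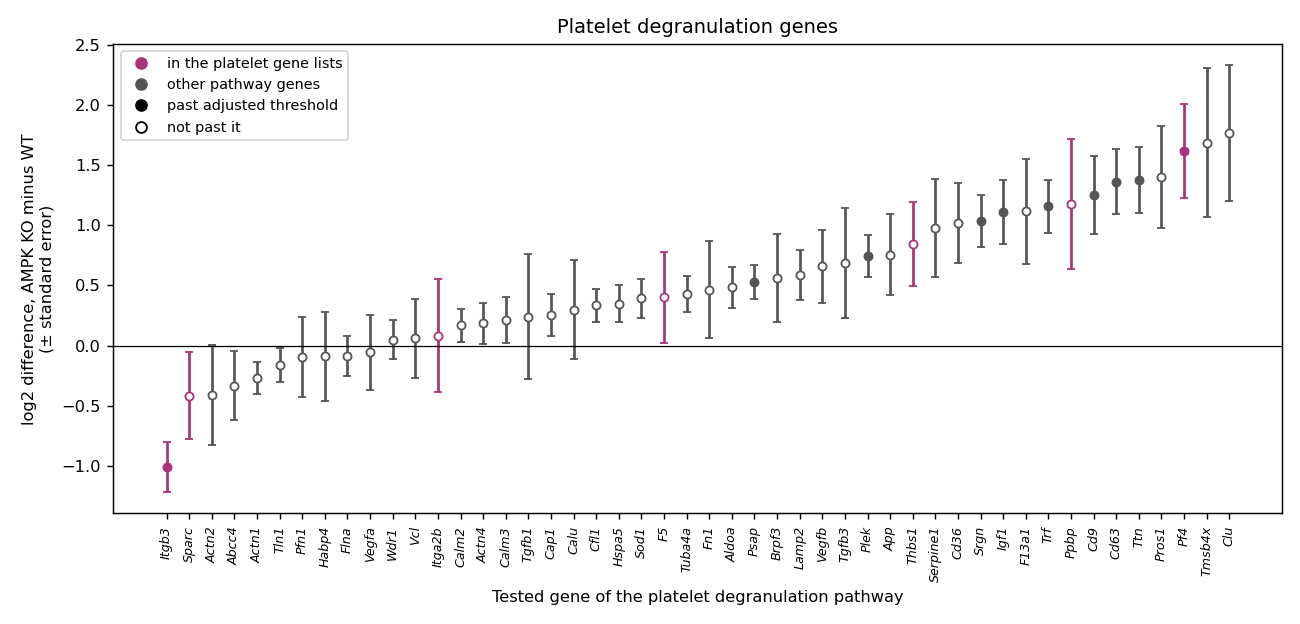
Log2 difference, AMPK KO minus WT, with its standard error (vertical axis), of the tested platelet degranulation genes that are shown here (horizontal axis, ordered by difference). Purple marks the 7 genes among them that are members or other platelet-restricted genes, and not those of the shared list. They run from the lowest value, Itgb3, to near the highest, Pf4, and filled points passed the adjusted threshold.

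Platelet genes that leukocytes also express, such as Cd9, Srgn and Plek, are in the pathway too, and they are not counted in the following overlap. With the members and the other platelet-restricted genes the pathway shared 10 genes. These were 6 of the 10 members (Pf4, Ppbp, Itga2b, Itgb3, Thbs1 and Sparc) and 4 of the other 27 genes. Itgb3, Thbs1 and Sparc have sources outside platelets too. Of these 10, 7 were tested, 1 rose and 1 fell. Their summed level was 69.0 ± 1.98 CPM in WT and 65.6 ± 3.12 in AMPK KO (SD, n = 3). Itgb3 decides this comparison, with a mean of 39.5 in WT and 19.2 in AMPK KO, since without it the direction turned, from 29.5 ± 3.78 to 46.4 ± 1.62, a ratio of 1.57. Without Itgb3, Thbs1 and Sparc the ratio was 1.68, and these subsets were chosen after the values were seen. The whole pathway summed to 9484 ± 1933 in WT and 15810 ± 3460 in AMPK KO, a ratio of 1.67. Without the 10 genes of the members and the platelet-restricted list the ratio was 1.67 again. Of the 42 remaining tested genes 9 rose and 0 fell in limma, with 23 at an unadjusted p under 0.05 in either direction. Cd9, Srgn and Plek of the shared list were among the 9, and Srgn alone had a mean of 702 in WT and 1476 in AMPK KO. Without Tmsb4x alone, the ratio of the pathway sums was 1.36, from 7685 ± 282 to 10433 ± 488. As these 10 genes are a small share of the pathway's summed level, leaving them out could hardly move this ratio, and it does not bear on the source of their RNA.

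**Figure D5:**
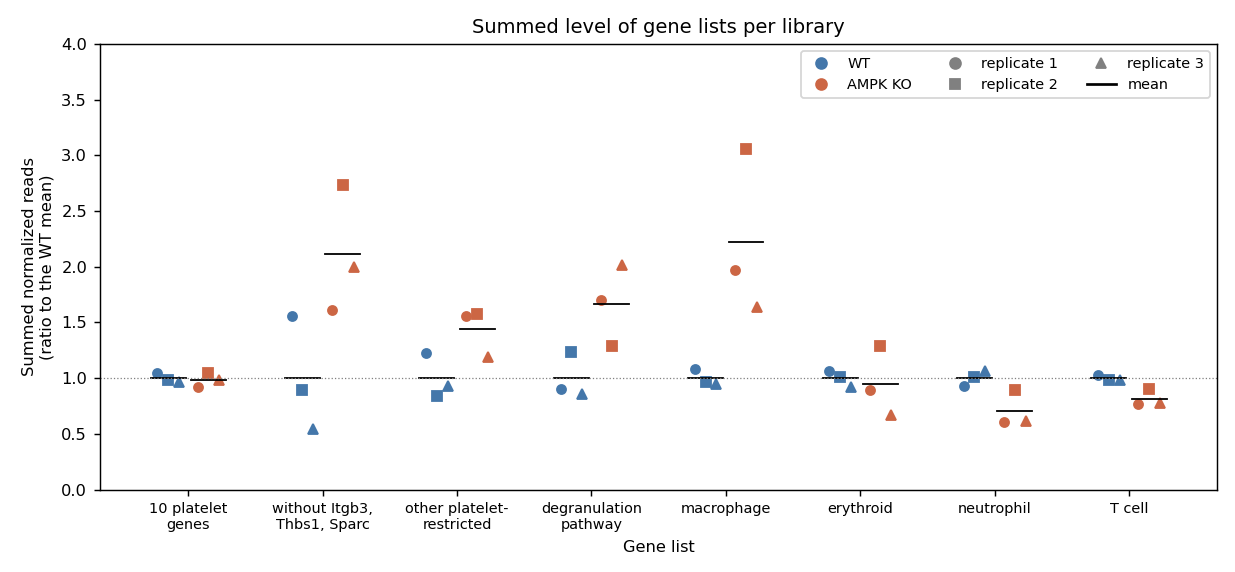
Summed normalized reads of each gene list as a ratio to the WT mean (vertical axis, from 0) in 3 WT (blue) and 3 AMPK KO (orange) libraries, with group means as black lines. The 10 platelet genes stay near 1 in both groups, and the macrophage list has an AMPK KO mean of 2.22, with all 3 AMPK KO libraries above all WT libraries.

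Markers of other cells were summed in the same way. In the macrophage list 10 of 17 tested genes rose and 0 fell in limma, and 13 were higher without overlap. With one library left out, 5 to 11 rose, with 5 without WT 1, 6 without WT 3 and 6 without AMPK KO 1. Its sum was 771 to 880 in WT and 1328 to 2475 in AMPK KO. Apoe, Csf1r and Vcam1, its most abundant genes, rose by 0.82, 0.97 and 1.24 (limma adjusted p 0.0442, 0.0197 and 0.000794), and C1qa and C1qc, complement C1q chains, rose by 1.85 and 1.51. Vcam1, C1qa and C1qc were called with any library left out, whereas the calls of Apoe and Csf1r were lost without WT 1, WT 2, WT 3 or AMPK KO 1, with differences of 0.49 (without AMPK KO 2) to 1.06 for Apoe and 0.68 to 1.21 for Csf1r over the libraries left out. The macrophage sum shared its direction between the groups with Pf4, the shared platelet genes and the pathway. The order of the libraries within a group was not shared throughout. Within AMPK KO the macrophage sum was highest in AMPK KO 2, at 2475, as were the pathway sum without Tmsb4x, at 10859 against 9901 and 10538, and by a small margin Pf4, whereas within WT it was highest in WT 1, at 880, where Pf4 was lowest. The sums of the shared platelet genes and of the whole pathway were lowest in AMPK KO 2, at 1582 and 12193, where Tmsb4x had 14320 reads, against 74033 and 101688 in AMPK KO 1 and 3. None of the macrophage markers belongs to the pathway, and their part in those differences was not tested.

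Erythroid genes, 0 called of 8 tested in limma (0 at an unadjusted p under 0.05), summed to 3994 to 4603 in WT and 2895 to 5579 in AMPK KO, and their leading genes Hba-a1, Hbb-bs and Hbb-bt had differences of -0.32, 0.16 and -0.05. Neutrophil genes summed to 793 to 907 in WT and 519 to 762 in AMPK KO, with 2 of 9 tested lower (1 to 4 with one library left out) and differences of -0.33, -0.55 and -1.53 for S100a9, S100a8 and Ngp, while Retnlg, Mmp8 and Cxcr2 had differences of 0.59, 0.49 and 0.16 and were not called. Basophil and mast cell genes summed to 30.1 to 38.4 in WT and 52.7 to 93.2 in AMPK KO. Hdc alone had a mean of 27.7 of 33.4 in WT and 64.0 of 67.0 in AMPK KO, so it carried most of this sum. In limma 1 of 2 tested was higher, Hdc, at 1.14, a call lost without WT 1. Cd200r3 had -1.28 and was not called, and Ms4a2 was untested with 1 to 21 reads. Endothelial genes, 0 called of 3 tested (1 at an unadjusted p under 0.05), had Pecam1 at -0.60, Plvap at 0.61 and Kdr at 0.02, and stromal genes were near 0, with at most 18 reads of Col1a1, 15 of Cxcl13 and 4 of Col1a2 per library. B cell genes, 0 called of 6 tested (1 at an unadjusted p under 0.05), had Cd79b at -0.16 and Cd79a at 0.02. T cell genes, which check the labelled cell type, summed to 2483 to 2604 in WT and 1952 to 2272 in AMPK KO, with 3 of 10 lower (0 to 4 with one library left out, 0 without WT 1) and differences of -0.31, -0.56 and -0.17 for Cd3d, Cd28 and Lck.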

How the data were processed

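RNA of 6 CD4 T cell samples (3 WT, 3 AMPK KO, grouped by sample title) was analysed. The authors deposited log2 values for each gene symbol, that is, log2 of normalized CPM plus 1. TMM and CPM are named by the study for an enrichment plot of these samples, and the submitters' processing notes name Bowtie2, bedtools and mm10, whereas the counting strand, the annotation and the tool versions are not given in the sources used here. For genes of up to 100 reads, 100% of values came within 0.1 of whole reads, so read numbers were recovered, with 9575096 to 11185360 per library. Floors and reads cover counting error only, as reads carry no molecular identifiers here.

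Genes with a mean log2 value of at least 1 (11279 of 23282) were fitted with limma 3.58.1 in R 4.3.3 (eBayes with trend, genotype only, two-sided, Benjamini-Hochberg over all tested genes, threshold 0.05), after a test on simulated data. A count test was not the main test because the deposited values are normalized. Positions are from GENCODE vM21 (GRCm38), and promoters from RefSeq (GRCm38.p6). Pathway genes were the Reactome set packaged with Bioconductor, matched by Entrez identifier. Members, gene lists and alternatives were chosen with earlier results of these data known. Named genes were all members, the tested partners, the called and the 5 most abundant genes of the platelet and pathway lists, the 3 most abundant of each marker list (macrophage, erythroid, stroma, endothelium, basophil and mast cell, neutrophil, B cell, T cell) and the 5 genes most like the summed level. Some items that this rule names are not reported here. Others, such as the untested platelet genes with their reads, C1q genes, Retnlg, Mmp8, Cxcr2, Cxcl1 and sex-linked genes, were named after their values were seen. Alternatives were quantile normalization, scaling to reads outside Rn45s, a pseudocount of 0.25, no filter, a filter of 3, a robust spread, limma voom on whole reads, a replicate block and each library left out. A library division, seen in how libraries deviated from their group means, and the sums without single genes were added after seeing the data. As nothing but the study's description as biologically independent says that samples are separate animals, p values measure the spread between these samples.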

Additional observations from a re-analysis of the deposited data

How the results depend on the processing

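Among all tested genes, 637 were called, and 287 of these (45.1%) were higher. Scaling to reads outside Rn45s moved the median of all differences from 0.02 to -0.05 and the share of calls that were higher to 32.5%. Quantile normalization, that scaling, the pseudocount of 0.25, the filter of 3, the robust spread and limma voom kept the count of all calls within 1.5 times, at 539 to 738. Without a filter 308 genes were called, with a replicate block 102, and with the library division as a term 1428 (drawn from the libraries' own deviations, so that fitting it lowers the residual spread by construction), and leaving out one library gave 127 to 1246. Same-numbered libraries had deviations from their group means correlated at -0.08, -0.32 and -0.16, so no pairing by replicate number was seen. Deviations within a group of 3 sum to 0, and the library division carried 42.5% of them. These correlations therefore cannot exclude a pairing. With the replicate block, 0 of the 10 platelet genes were called higher and 0 lower, and 0 degranulation genes higher and 0 lower. Platelet genes called higher numbered 0 without a filter and 0 with the filter of 3, which removes Pf4, 2 with the library division (Pf4 and Ppbp), and 0 to 2 with one library left out. Those called lower numbered 0 to 1 with one library left out. Of the other platelet-restricted genes, 1 was called with the library division. Degranulation genes called higher numbered 3 without a filter, 19 with the library division and 0 to 13 with one library left out (0 without WT 1 or AMPK KO 1, 3 without WT 3), and those called lower 0 to 1. The ratio of the summed level of the 10 genes was 0.953 to 1.01 with one library left out, and 1.77 without Itgb3 and 2.11 without Itgb3, Thbs1 and Sparc. Pf4, Ppbp, Itgb3, Treml1, Thbs1 and Sparc kept the sign of their difference under each alternative in which they were tested, and Itga2b changed sign in 3 of 14, with quantile normalization, without WT 3 and without AMPK KO 2. Within the division of WT 1, WT 3 and AMPK KO 2 from the other 3 libraries, differences were 2.00 and 1.02 for Pf4 and -0.95 and -1.09 for Itgb3. Apart from the smaller or larger number of genes tested under the filters and of libraries when one was left out, the cause of these changes was not tested. Depth limits Gp1bb, Gp9 and Tubb1, with at most 35, 7 and 2 reads per library.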
